A study of Homo sapiens with 18 samples.

Results

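The large subunit of the cytoplasmic ribosome, the 60S subunit, is built from ribosomal RNA and a fixed set of proteins whose genes carry the prefix RPL. The genes described here are 45 of them, chosen by their symbols, and they are 45 of the 58815 genes in the deposited counts table. RPL6 carries no symbol there and was taken by its identifier, ENSG00000089009. All 45 passed the filter on low counts that left 12160 genes for testing. The counts come from RNA sequencing of LM2, BrM3 and BoM cells, populations of the human breast cancer line MDA-MB-231 that were selected in mice for metastasis to lung, brain and bone, respectively. Every population carried a hairpin that doxycycline switches on, a control hairpin (shCtrl) or a hairpin against WDR5 (shWDR5, one hairpin sequence, named shWDR5-1 in the methods), and every culture, controls included, received doxycycline at 1 μg/mL for 3 days. There were 3 libraries in each of the 6 groups, from cultures taken at separate passages, which makes 18 libraries in all. The lines are virus-infected, drug-selected populations of a single parental line, so they stand for that parental line rather than for breast tumours in general.

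WDR5 is a scaffold protein with a WD40-repeat propeller that is a core part of the complexes that methylate lysine 4 of histone H3, and it also binds chromatin at many ribosomal protein genes. Each RPL protein is needed in a single copy per 60S subunit, apart from the acidic stalk proteins P1 and P2, and most are assembled in the nucleolus and nucleoplasm before the subunit is exported. Their mRNAs are short, abundant and stable, and in most of them transcription starts at a C followed by a run of pyrimidines, the terminal oligopyrimidine (TOP) tract through which mTOR signalling controls their translation. The human genome also holds very many processed copies of these mRNAs, so a read from an RPL mRNA can match more than one place.

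The annotated start sites of the members at either end of the response show this tract, and they are printed to let the groups be compared. Each line holds 30 bases of GRCh38 from the RefSeq start windows, 5′ to 3′ on the strand of the gene, with the first 10 bases upstream of the start and the pyrimidine run that begins at the start in capitals. The first 6 genes are those with the lowest mean log2 fold change over the 3 lines.
RPL26: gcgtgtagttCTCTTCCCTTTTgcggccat
RPL17: ttccctaagcagcctgaggtgagtgtttct
RPL29: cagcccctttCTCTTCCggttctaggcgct
RPL34: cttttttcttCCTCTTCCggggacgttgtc
RPL37A: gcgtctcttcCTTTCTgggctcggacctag
RPL36: cggcgccagcCCTTCCgccacggccgtctc
The next 4 are those with the highest mean.
RPL14: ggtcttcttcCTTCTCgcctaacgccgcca
RPL27A: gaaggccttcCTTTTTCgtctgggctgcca
RPL21: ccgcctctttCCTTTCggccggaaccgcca
RPLP0: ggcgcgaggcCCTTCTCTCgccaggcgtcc
These stretches lie at chr17:8383174-8383203 (RPL26, minus strand), chr18:49492446-49492475 (RPL17, minus), chr3:51995876-51995905 (RPL29, minus), chr4:108620566-108620595 (RPL34, plus), chr2:216498834-216498863 (RPL37A, plus), chr19:5690285-5690314 (RPL36, plus), chr3:40457329-40457358 (RPL14, plus), chr11:8682782-8682811 (RPL27A, plus), chr13:27251548-27251577 (RPL21, plus) and chr12:120201092-120201121 (RPLP0, minus). All of them but RPL17 begin with a C and at least 4 further pyrimidines, so the tract is found at both ends of the response. A start window was matched for 38 of the 45 members.

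A few facts of the libraries bear on what follows. Counts on genes ranged from 17485841 to 119667013 per library. The cells expressed VIM at 1494 to 2231 CPM (counts per 1000000 counts of the TMM-scaled library) and CD44 at 497.3 to 765.1. Of the epithelial markers, KRT8 was at 194 to 447, KRT18 at 263 to 501, KRT19 at 24.24 to 169.7 and EPCAM at 4.39 to 10.12. CDH1, another of them, was at 0.0386 to 0.601, although the labels call the cells epithelial. Of the receptor genes, ESR1 stayed at or below 0.537 and PGR at or below 0.715, while ERBB2 was at 41.45 to 83.31. Among markers of other cell types, COL1A1 was at 1.771 to 86.98 and PECAM1 at 0.8478 to 4.671. PTPRC stayed at or below 1.057 and ALB at or below 0.2251. WDR5 itself was 113, 128 and 134 CPM in the LM2 shCtrl libraries and 24.3, 24.4 and 20.5 in the shWDR5 libraries, 85.5, 93.3 and 79.4 against 20.8, 21.3 and 23.5 in BrM3, and 87.5, 90.5 and 90.4 against 14, 21.1 and 22.1 in BoM, with no overlap in any line. The libraries of a group were ordered alike over many RPL genes, most of all in BoM. BoM shWDR5 replicate 1 had the lowest CPM of its group for 42 of the 45 genes and replicate 3 the highest for 40, and BoM shCtrl replicate 2 was the highest of its group for 34 while replicate 1 was the lowest for 35. In the other lines the most often lowest library was BrM3 shWDR5 replicate 1 (32 genes) and the most often highest LM2 shWDR5 replicate 3 (30 genes). The BoM counts and median are given with and without these BoM libraries, and the BoM changes of the genes described at length with their range on leaving out a library.

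The share of all counts that fell on the 45 genes was lower after WDR5 knockdown in LM2 and BrM3, where the libraries did not overlap. It was 3.136%, 3.156% and 3.439% in the LM2 shCtrl libraries and 2.601%, 2.512% and 2.880% in the shWDR5 libraries. In BrM3 it was 3.136%, 3.315% and 3.143% against 2.680%, 2.968% and 3.048%. In BoM it was 3.159%, 3.819% and 3.348% against 2.396%, 3.034% and 3.562%, so that the third shWDR5 library lay above 2 of the 3 shCtrl libraries. By an exact two-sided permutation test p was 0.1 for LM2, 0.1 for BrM3 and 0.4 for BoM, where 0.1 is the smallest p that 3 libraries against 3 can give. These are shares of the sequenced RNA, so a change in the amount of RNA per cell would not show in them. Using spike-in RNA, the study reported that global RNA levels had not changed at this time. That could not be checked here, since the deposited counts hold 0 spike-in rows.

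**Figure D1:**
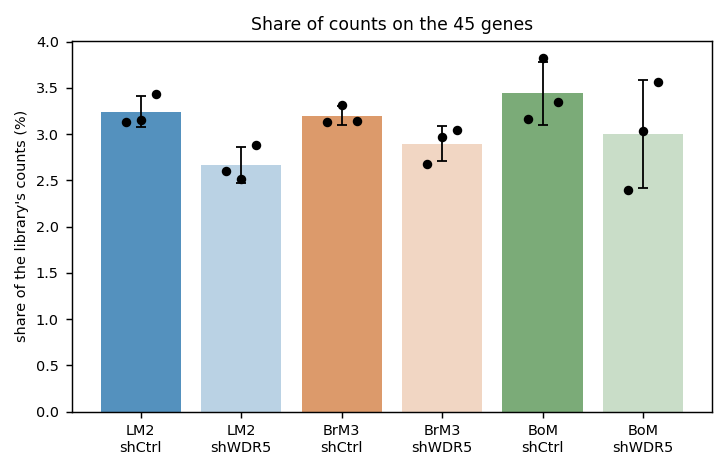
The share of each library's counts on the 45 large-subunit genes, in percent, by line and hairpin. Bars are means of 3 libraries, error bars are SD and points are libraries; the shWDR5 points lie below the shCtrl points in LM2 (2.51 to 2.88% against 3.14 to 3.44%) and BrM3, and overlap with them in BoM.

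Gene by gene the log2 fold changes of the RPL mRNAs lay on both sides of 0, and in this fit each had the same sign in the 3 lines. After knockdown 31 of the 45 genes had a log2 fold change below 0 in all 3 lines and the other 14 had one above 0 in all 3, while over all tested genes 33.5% were below 0 and 35% above 0 in all 3 lines. The 14 were thus not a larger share than over all tested genes, and 8 of them passed the test in no line. The signs of RPL3, RPL12, RPL10A, RPL24, RPL22, RPLP1 and RPLP2, none of which passed the test in any line, changed in at least 1 line under some alternative, RPL22 under total count scaling (-0.04 in LM2), RPL3 and RPL12 with other filters or the GC correction (0.06 for RPL3 in BrM3 with the latter), and RPLP1 and RPLP2 in BoM without BoM shWDR5 replicate 3 (-0.16 and -0.07). At an adjusted p under 0.05 in edgeR's quasi-likelihood test, 21 genes were lower and 2 higher in LM2, where 6.29% of all tested genes were called, 4.8% lower and 1.49% higher. In BrM3 19 were lower and 5 higher (10.9% of all genes called, 7.96% and 2.92%), and in BoM 21 were lower and 5 higher (16.2% called, 10.8% and 5.41%). Of all genes called, 76.3%, 73.2% and 66.5% were lower in LM2, BrM3 and BoM, which total count scaling moved to 90.6%, 91.5% and 88% and the removal of GC dependence to 48.4%, 43.4% and 44.2%. Under the former the 45 genes gave 27, 21 and 23 lower and 1, 5 and 3 higher calls, and under the latter 25, 18 and 22 lower and 6, 9 and 9 higher. The median log2 fold change of the 45 was -0.63, -0.41 and -0.45 in LM2, BrM3 and BoM, against -0.001, -0.005 and 0.016 over all tested genes. Without BoM shWDR5 replicate 1 the BoM median was -0.29 and the number of higher genes 8, without BoM shWDR5 replicate 3 the median was -0.67 and the number of higher genes 3. Without BoM shCtrl replicate 1 the BoM median was -0.53, and without BoM shCtrl replicate 2 it was -0.36 and there were 13 lower genes in BoM. A fit that added a replicate block gave BoM 26 lower and 8 higher genes. The block added RPL36, RPL18, RPL35, RPL39 and RPL41 as lower in BoM and RPL19, RPL22 and RPL27A as higher, and ended no call of the 45 genes in that line. On leaving out each library in turn, the BoM log2 fold change ranged from -1.76 to -1.33 for RPL26, -1.42 to -1.08 for RPL17, -0.78 to -0.62 for RPL36A, -1.02 to -0.68 for RPL29, -1.22 to -0.81 for RPL34, -1.20 to -0.72 for RPL37A, -1.34 to -0.70 for RPL36. It ranged from -0.76 to -0.51 for RPL5, -0.68 to -0.36 for RPL11, -0.96 to -0.53 for RPL31, -0.78 to -0.53 for RPL7, -0.74 to -0.39 for RPL9, -0.84 to -0.50 for RPL32, and among the genes above 0 from 0.44 to 0.66 for RPLP0, 0.43 to 0.66 for RPL14, 0.40 to 0.76 for RPL21.

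**Figure D2:**
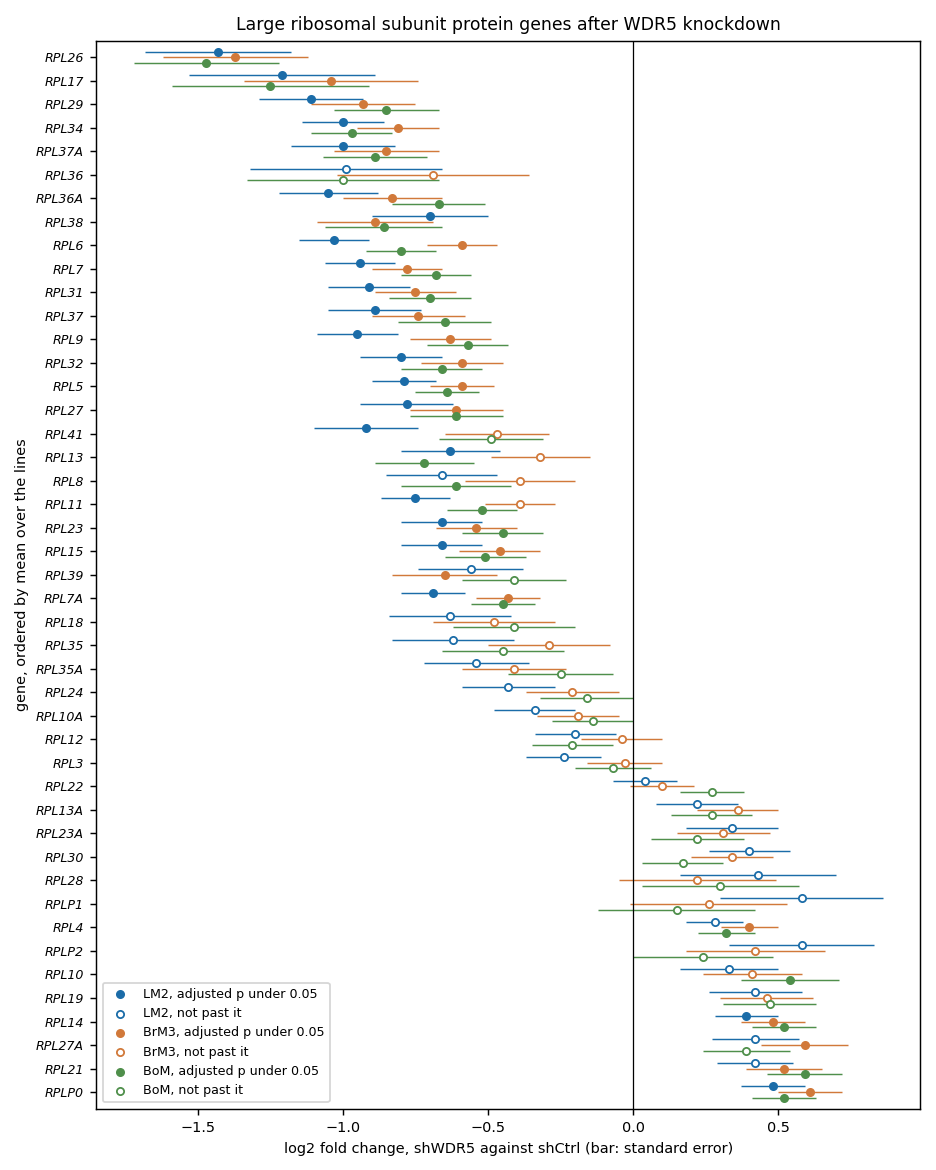
Log2 fold change of shWDR5 against shCtrl for the 45 genes (rows, ordered by the mean over lines) in LM2, BrM3 and BoM, with standard errors; filled points passed an adjusted p under 0.05 and open points did not. The points of each gene lie on the same side of 0 in the 3 lines, from RPL26 at -1.37 to -1.47 to RPLP0 at 0.48 to 0.61.

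A total of 18 genes passed the test as lower in all 3 lines, which 3.26% of all tested genes did, and they are RPL26, RPL17, RPL29, RPL34, RPL37A, RPL36A, RPL38, RPL6, RPL7, RPL31, RPL37, RPL9, RPL32, RPL5, RPL27, RPL23, RPL15 and RPL7A, in order of mean change. RPLP0 and RPL14 passed as higher in all 3 lines, which 0.748% of all genes did. In BrM3 the shWDR5 libraries lay wholly below the shCtrl libraries for 28 genes and wholly above for 9 (19.7% and 15.9% of all genes), in LM2 for 29 and 9 (14.6% and 10.7%), and in BoM for 21 and 5 (17.3% and 12.8%). Of the 20 genes that passed in all 3 lines, 11 passed in every line in each of the 18 fits that left out a library. The other 9 lost a call in at least 1 line, and RPL15 in BrM3 (adjusted p up to 0.17, lost in 15 of the fits, all but those without LM2 shWDR5 replicate 3 or BoM shWDR5 replicate 1 or 3) and RPL38 in LM2 (adjusted p up to 0.19, lost in 11 of them, those without any LM2 library but shWDR5 replicate 3, any BrM3 library but shWDR5 replicate 1, or BoM shWDR5 replicate 2) did so most often. RPL14 in LM2 was lost without any of LM2 shCtrl replicates 2 and 3 and LM2 shWDR5 replicates 1, 2 and 3 (adjusted p up to 0.13), and RPLP0 in LM2 without LM2 shCtrl replicate 2 or LM2 shWDR5 replicate 1 (up to 0.077), so without either of these no gene was higher in all 3 lines. RPL15 was also lost in LM2 without LM2 shWDR5 replicate 1 or 2 (up to 0.06) and in BoM without BoM shCtrl replicate 2 or 3 or BoM shWDR5 replicate 1 (up to 0.09). RPL27 was lost in BrM3 without BrM3 shCtrl replicate 2 or BrM3 shWDR5 replicate 2 or 3 (up to 0.072). RPL27 and RPL37 in BoM were lost without BoM shCtrl replicate 2 (0.068 and 0.05), RPL7A in BoM likewise (0.05) and in BrM3 without BrM3 shCtrl replicate 1 or 2 or BrM3 shWDR5 replicate 1 (up to 0.066). RPL23 was lost in BrM3 without BrM3 shCtrl replicate 3 or BrM3 shWDR5 replicate 2 (up to 0.061) and in BoM without BoM shCtrl replicate 2 or 3 or BoM shWDR5 replicate 1 or 2 (up to 0.11). RPL17 was lost in LM2 without LM2 shCtrl replicate 2 or 3 or LM2 shWDR5 replicate 1 or 2, in BrM3 without BrM3 shCtrl replicate 1 or 2 or BrM3 shWDR5 replicate 1 or 3, and in BoM without BoM shCtrl replicate 1 or 2 or BoM shWDR5 replicate 2 (adjusted p up to 0.2).

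RPL26, a protein at the mouth of the exit tunnel that also binds p53 mRNA, fell furthest. It lies at chr17:8377516-8383213 (ENSG00000161970). Its CPM was 46.3, 49.4 and 32.4 in shCtrl and 10.7, 19.4 and 17.5 in shWDR5 in LM2, 47.2, 56.8 and 34.7 in shCtrl and 15.3, 22.3 and 16 in shWDR5 in BrM3 and 44.3, 45.8 and 45.7 in shCtrl and 22.0, 13.8 and 13.0 in shWDR5 in BoM. No shWDR5 library reached the lowest shCtrl library of its line. The log2 fold change was -1.43 (standard error 0.25, adjusted p = 0.002) in LM2, -1.37 (standard error 0.25, adjusted p = 0.002) in BrM3 and -1.47 (standard error 0.25, adjusted p = 0.00072) in BoM, which leaves 37.2%, 38.7% and 36.1% of the shCtrl level. RPL17, another tunnel protein, at chr18:49488453-49492508, was 2.61, 5.26 and 5.11 in shCtrl and 1.44, 1.97 and 2.48 in shWDR5 CPM in LM2, 7.52, 12.5 and 6.05 in shCtrl and 2.97, 5.26 and 4.30 in shWDR5 in BrM3 and 3.98, 4.57 and 2.67 in shCtrl and 1.88, 1.28 and 1.58 in shWDR5 in BoM, again without overlap, with log2 fold changes of -1.21 ± 0.32, -1.04 ± 0.30 and -1.25 ± 0.34 (standard errors, adjusted p 0.031, 0.035 and 0.018). RPL36A, at chrX:101390824-101396155, was 5.67, 5.83 and 6.04 in shCtrl and 2.48, 3.72 and 1.97 in shWDR5 CPM in LM2, 8.85, 8.12 and 8.15 in shCtrl and 4.74, 5.09 and 4.32 in shWDR5 in BrM3 and 11.6, 11.4 and 10.4 in shCtrl and 6.49, 6.47 and 8.04 in shWDR5 in BoM, with log2 fold changes of -1.05, -0.83 and -0.67 (adjusted p 0.0011, 0.0038 and 0.0093).

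These 3 genes had the lowest CPM of the 45, RPL17 and RPL36A by far, with 268 to 3974 counts per library for RPL26, 33 to 628 for RPL17 and 35 to 742 for RPL36A. In the annotation used here they share same-strand exons with readthrough gene models, which cover 71.03% of the coding bases of RPL26, 100% of those of RPL17 (RPL17-C18orf32) and 94.34% of those of RPL36A (RPL36A-HNRNPH2), and the readthrough models had 0 counts in all 18 libraries. The part of this overlap in their levels and changes was not tested. RPL22 shares 59.9% of its coding bases with a model that had 0 to 2 counts per library, while the other members share at most 1.31% on their own strand.

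RPL29, RPL34 and RPL37A, all structural proteins of the subunit, came next. RPL29, at chr3:51993522-51995895, was 548, 617 and 744 in shCtrl and 276, 259.8 and 352 in shWDR5 CPM in LM2, 503, 607 and 601 in shCtrl and 243, 325 and 329 in shWDR5 in BrM3 and 491, 692 and 543 in shCtrl and 238, 330.3 and 389 in shWDR5 in BoM. RPL34, at chr4:108620569-108630412, was 345, 299 and 269 in shCtrl and 153, 149 and 155 in shWDR5 in LM2, 270.2, 269.5 and 251 in shCtrl and 157, 149.8 and 144 in shWDR5 in BrM3 and 228, 255.4 and 249.3 in shCtrl and 94.2, 116 and 163 in shWDR5 in BoM. RPL37A, at chr2:216498825-216579180, was 738, 648 and 595 in shCtrl and 359.5, 330.4 and 302 in shWDR5 in LM2, 777, 759 and 666 in shCtrl and 335, 447 and 439.6 in shWDR5 in BrM3 and 597, 737 and 664 in shCtrl and 273, 306 and 501 in shWDR5 in BoM. In none of the lines did the groups overlap for any of them. The log2 fold changes of RPL34 were -1.0 (standard error 0.14, adjusted p = 0.00041) in LM2, -0.81 (standard error 0.14, adjusted p = 0.0015) in BrM3 and -0.97 (standard error 0.14, adjusted p = 0.00021) in BoM. Those of RPL29 were -1.11, -0.93 and -0.85 and those of RPL37A -1.0, -0.85 and -0.89, each with a standard error of 0.18 and an adjusted p between 0.0014 and 0.0053.

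RPL36 had the sixth lowest mean but did not pass the test in any line. Its CPM was 207, 334 and 511 in shCtrl and 139, 142 and 252 in shWDR5 in LM2, 212, 339 and 217 in shCtrl and 152, 156 and 169 in shWDR5 in BrM3 and 149.5, 236 and 132 in shCtrl and 57.2, 79.9 and 123 in shWDR5 in BoM. Its libraries spread widely within groups, LM2 shWDR5 replicate 3 lay above LM2 shCtrl replicate 1, and the standard error was 0.33 in each line. The log2 fold changes were -0.99 (adjusted p = 0.091), -0.69 (0.21) and -1.0 (0.05, just above the threshold). With GC dependence removed it passed in LM2 (-0.88, adjusted p = 0.0025) and BoM (-0.74, 0.0048), and without a filter on low counts it passed in all 3 lines (adjusted p up to 3.1e-05). The counts of RPL36 were the same in the unfiltered fit, where 41236 genes in place of 12160 were fitted together. Why its p was so much smaller there was not tested, and its LM2 groups overlap all the same. RPL36 also passed in BrM3 with that line fitted alone (0.045) and in BoM with total count scaling (0.028). With the replicate block it passed in all 3 lines (0.0042 in BoM). RPL36 is also the member with the highest GC content, 63.4% over the pooled sequences of its annotated transcripts.

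RPL5 and RPL11 bind 5S ribosomal RNA, and as a particle with it they inhibit MDM2 when ribosome assembly fails. RPL5, at chr1:92832013-92841924, was 1148, 1004 and 1053 in shCtrl and 602, 596 and 656 in shWDR5 CPM in LM2, 1127, 1129 and 1160 in shCtrl and 783, 755 and 738 in shWDR5 in BrM3 and 1235, 1401 and 1462 in shCtrl and 711, 898 and 1026 in shWDR5 in BoM. The groups did not overlap, and the log2 fold changes were -0.79 (standard error 0.11, adjusted p = 3e-04), -0.59 (standard error 0.11, adjusted p = 0.0023) and -0.64 (standard error 0.11, adjusted p = 0.00072). RPL11 was 745, 678 and 774 in shCtrl and 449, 436 and 425 in shWDR5 in LM2, 600.3, 606 and 544 in shCtrl and 448, 422 and 468 in shWDR5 in BrM3 and 863, 988 and 856 in shCtrl and 479, 646 and 761 in shWDR5 in BoM. It fell in LM2 (-0.75, adjusted p = 0.0014) and BoM (-0.52, 0.0082), and in BrM3 its groups did not overlap but the change of -0.39 had an adjusted p of 0.052.

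RPL7, RPL9, RPL31 and RPL32, which the study also measured by PCR, fell in each line. RPL31, at chr2:101002229-101024032 next to the exit tunnel, was 470, 437 and 464 in shCtrl and 241, 232 and 256 in shWDR5 CPM in LM2, 685, 706 and 613 in shCtrl and 378, 401 and 409 in shWDR5 in BrM3 and 728, 852 and 782 in shCtrl and 365, 447 and 642 in shWDR5 in BoM. RPL7 was 799, 669 and 771 in shCtrl and 392, 380.2 and 398 in shWDR5 in LM2, 685, 659.9 and 744 in shCtrl and 383, 408 and 427 in shWDR5 in BrM3 and 738, 853 and 886 in shCtrl and 405, 559 and 585 in shWDR5 in BoM. RPL9 was 472, 396 and 408 in shCtrl and 209.7, 208 and 245 in shWDR5 in LM2, 362, 366 and 379 in shCtrl and 235, 239.9 and 241 in shWDR5 in BrM3 and 470.4, 544 and 563 in shCtrl and 261, 369 and 434 in shWDR5 in BoM. For these 3 genes every shWDR5 library was below every shCtrl library of its line, with BoM shWDR5 replicate 3 nearest to the controls. RPL32 was 903, 872 and 919 in shCtrl and 529.6, 497 and 516 in shWDR5 in LM2, 817, 829 and 749 in shCtrl and 440.4, 559.9 and 589 in shWDR5 in BrM3 and 869, 1061 and 1009 in shCtrl and 467, 625 and 763 in shWDR5 in BoM, likewise without overlap. The log2 fold changes in LM2, BrM3 and BoM were -0.91, -0.75 and -0.70 for RPL31, -0.94, -0.78 and -0.68 for RPL7, -0.95, -0.63 and -0.57 for RPL9, and -0.80, -0.59 and -0.66 for RPL32, with adjusted p at or below 0.011 in all 12 tests. RPL6, at chr12:112405189-112418838, had the smallest adjusted p of the 45 genes in LM2, 9.8e-05, and fell from 1148, 1005 and 1109 CPM to 585, 523 and 490.2 there.

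The proteins of the exit tunnel and its mouth did not move as a block. Of the 9 genes grouped here for that position, RPL26, RPL17 and RPL31 fell in all 3 lines and RPL39 in BrM3 (-0.65, adjusted p = 0.026, up to 0.08 on leaving out any of the 6 BrM3 libraries). RPL4 rose in BrM3 (0.40, 0.014, up to 0.081 without BrM3 shCtrl replicate 1 or 2 or BrM3 shWDR5 replicate 2 or 3) and BoM (0.32, 0.032, up to 0.12 without BoM shCtrl replicate 1, 2 or 3 or BoM shWDR5 replicate 2 or 3). RPL35 (-0.62, -0.29 and -0.45 in LM2, BrM3 and BoM), RPL19 (0.42, 0.46 and 0.47), RPL22 (0.04, 0.10 and 0.27) and RPL23A (0.34, 0.31 and 0.22) did not pass the test. Under the replicate block RPL35, RPL19 and RPL22 passed in BoM. Calls of these genes in other lines or under other alternatives are not listed here.

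RPLP0 rose in every line. It encodes P0, the anchor of the stalk that recruits elongation factors to the ribosome, and it was the most abundant of the 45 mRNAs in CPM in every group. At chr12:120196699-120201235 (ENSG00000089157), its CPM was 2234, 2292 and 2384 in shCtrl and 3355, 3101 and 3192 in shWDR5 in LM2, 2608, 2756 and 2682 in shCtrl and 3461, 4202 and 4596 in shWDR5 in BrM3 and 3114, 3523 and 3337 in shCtrl and 3828, 5191 and 5304 in shWDR5 in BoM, with all shWDR5 libraries above all shCtrl libraries of the line. The log2 fold change was 0.48 (standard error 0.11, adjusted p = 0.017) in LM2, 0.61 (standard error 0.11, adjusted p = 0.0027) in BrM3 and 0.52 (standard error 0.11, adjusted p = 0.005) in BoM. P1 and P2, which sit on P0 as dimers, had values above 0 with wide errors. RPLP1 was 376, 576 and 652 in shCtrl and 602, 633 and 1161 in shWDR5 in LM2, 453, 675 and 539 in shCtrl and 582, 733 and 678 in shWDR5 in BrM3 and 309.7, 455 and 302 in shCtrl and 290.4, 347 and 549.8 in shWDR5 in BoM, and its groups overlapped in each line. RPLP2 did not pass either, with 0.58, 0.42 and 0.24 on the log2 scale and a standard error of 0.24 to 0.25. RPL12, which binds at the base of this stalk, was at -0.20, -0.04 and -0.21 and passed in no line.

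RPL14 rose in all 3 lines and RPL21 in 2 of them. RPL14, at chr3:40457292-40468587, was 799.7, 709.8 and 703 in shCtrl and 970.2, 955 and 983 in shWDR5 CPM in LM2, 784, 755 and 800 in shCtrl and 1011, 1107 and 1135 in shWDR5 in BrM3 and 939, 1046 and 1100 in shCtrl and 1196, 1568 and 1672 in shWDR5 in BoM. The log2 fold changes were 0.39 (standard error 0.11, adjusted p = 0.033), 0.48 (standard error 0.11, adjusted p = 0.0075) and 0.52 (standard error 0.11, adjusted p = 0.0028). With total count scaling, which moved the median of all genes by -0.077 in LM2, -0.103 in BrM3 and -0.082 in BoM, RPL14 no longer passed in LM2. RPL21, at chr13:27251362-27256691, was 547, 477 and 549.9 in shCtrl and 694, 686 and 720.4 in shWDR5 in LM2, 443, 420.2 and 408 in shCtrl and 596, 585 and 641 in shWDR5 in BrM3 and 421, 494 and 447 in shCtrl and 503.5, 691 and 851 in shWDR5 in BoM. It lay above the controls in each line and passed in BrM3 (0.52, adjusted p = 0.017, up to 0.073 without BrM3 shCtrl replicate 2 or 3 or BrM3 shWDR5 replicate 3) and BoM (0.59, 0.0062) but not in LM2 (0.42, 0.074, but between 0.014 and 0.041 with DESeq2, without a filter, with GC dependence removed, with the replicate block or with the line alone). RPL27A passed in BrM3 (0.59, adjusted p = 0.019, up to 0.086 without BrM3 shCtrl replicate 1 or 3 or BrM3 shWDR5 replicate 3), with 900.2, 1036 and 864 CPM in shCtrl against 1413, 1349 and 1448 in shWDR5. It was 623, 735 and 894 in shCtrl and 931, 939.9 and 1136 in shWDR5 in LM2 and 685, 804 and 614 in shCtrl and 731, 907 and 1120 in shWDR5 in BoM, and stood at 0.42 in LM2 and 0.39 in BoM, where it passed without a filter (0.014 and 0.012) and, in BoM, with GC dependence removed (0.039). With the replicate block RPL27A passed in LM2 and in BoM (0.042 in BoM). RPL10, the protein that joins the subunit last, passed in BoM (0.54, adjusted p = 0.043), a call that held in 6 of the 18 fits that left out a library and ended without any of BoM shCtrl replicates 1, 2 and 3 and BoM shWDR5 replicates 2 and 3, or of 7 libraries of the other lines (adjusted p up to 0.25).

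**Figure D3:**
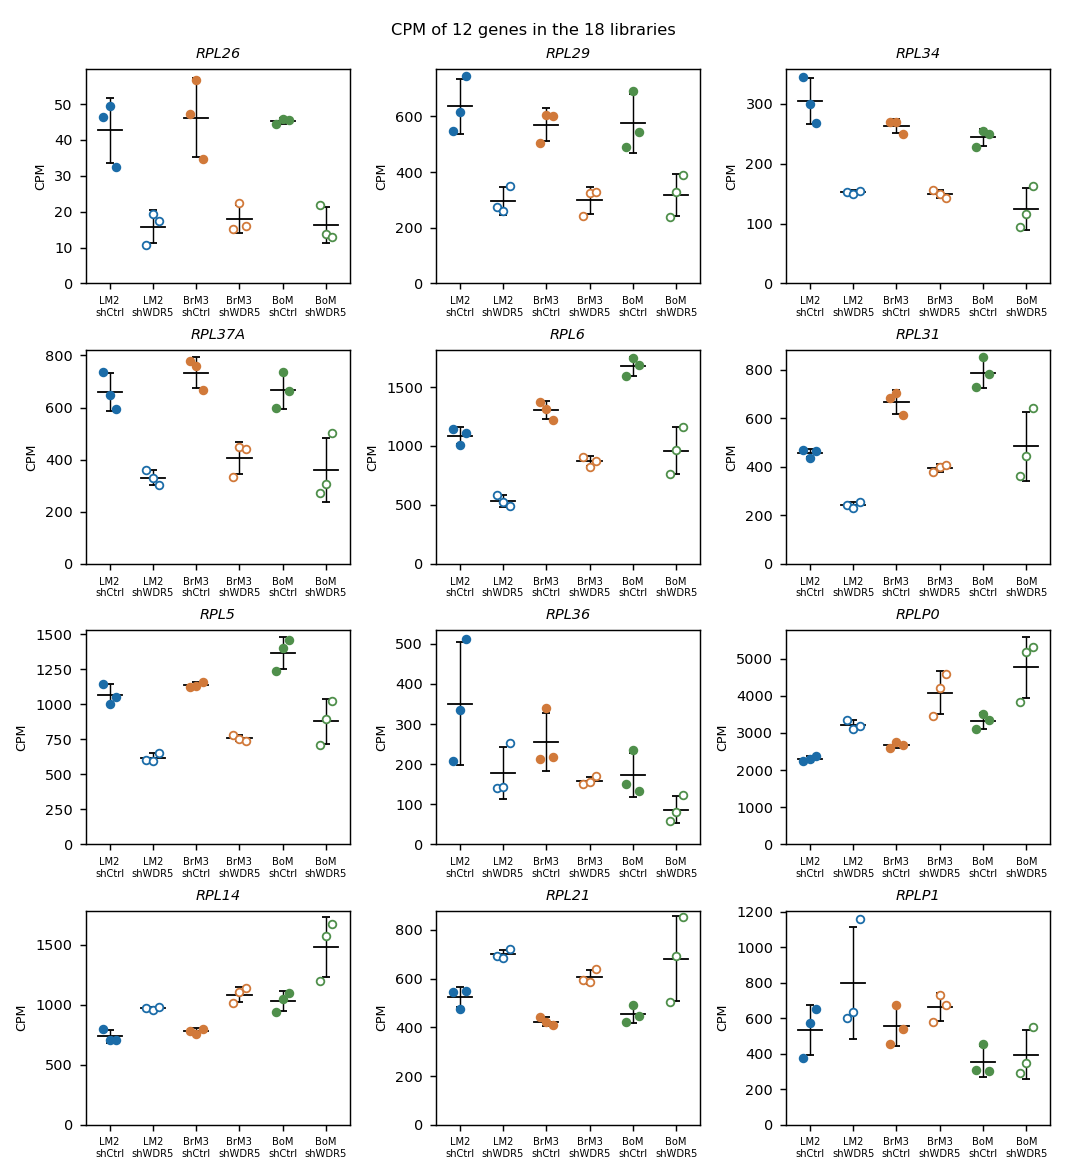
CPM of 12 genes in each of the 18 libraries (filled points shCtrl, open points shWDR5), with group means and SD of 3 libraries. RPL26 to RPL5 lie lower in shWDR5 in each line, RPLP0, RPL14 and RPL21 lie higher, RPL36 overlaps in LM2 and RPLP1 overlaps in each line.

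Other genes passed in 1 or 2 lines or in none. RPL13 fell in LM2 (-0.63, adjusted p = 0.038, up to 0.16 without LM2 shCtrl replicate 2 or 3 or LM2 shWDR5 replicate 1 or 2, and lost also without BrM3 shCtrl replicate 1 or BrM3 shWDR5 replicate 3) and BoM (-0.72, 0.01, 0.061 without BoM shCtrl replicate 2), RPL41, the smallest ribosomal protein, in LM2 (-0.92, 0.0055) and RPL8 in BoM (-0.61, 0.04, up to 0.2 without LM2 shCtrl replicate 2, BoM shCtrl replicate 2 or 3 or BoM shWDR5 replicate 1 or 2). In all, 16 genes passed in no line, 8 with values below 0 in each line and 8 with values above 0. RPL13 was 383, 455 and 479 in shCtrl and 283, 248 and 319 in shWDR5 CPM in LM2, 403, 503.8 and 338 in shCtrl and 309, 353 and 338 in shWDR5 in BrM3 and 519, 647 and 478 in shCtrl and 268, 299 and 434 in shWDR5 in BoM. RPL41 was 403, 393 and 556 in shCtrl and 247, 229.5 and 238 in shWDR5 CPM in LM2, 436, 442 and 386 in shCtrl and 257, 308 and 349 in shWDR5 in BrM3 and 412, 576 and 485 in shCtrl and 258, 328 and 460.4 in shWDR5 in BoM. RPL3, whose protein lines the peptidyl transferase centre, was closest to 0, at -0.24, -0.03 and -0.07. RPL24 and RPL10A, the latter the protein of the L1 stalk, were at -0.43, -0.21 and -0.16 and at -0.34, -0.19 and -0.14. With 3 libraries a group the precision was limited, since in simulated counts a change of 0.5 on the log2 scale was recovered in LM2 for 38.3% of the changed genes, with 21.5% for BrM3 and 19.6% for BoM.

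No difference in response between lines passed the test for any of the 45 genes. In edgeR's quasi-likelihood test 0 genes passed in each of the 3 pairs of lines (of all tested genes, 0.00822% passed for BrM3 minus LM2, 0% for BoM minus LM2 and 0.00822% for BoM minus BrM3). At an unadjusted p under 0.05 there were 1, 0 and 0 genes, and DESeq2 gave 0 adjusted calls and the same 1, 0 and 0 at the unadjusted threshold. The differences ranged from -0.32 to 0.46 for BrM3 minus LM2, from -0.42 to 0.43 for BoM minus LM2 and from -0.40 to 0.24 for BoM minus BrM3. By edgeR's test the smallest p was that of RPL6, which fell less in BrM3 (1377, 1317 and 1221 CPM to 910.3, 825 and 872) than in LM2, by 0.44 (95% interval 0.08 to 0.80, adjusted p = 1). In BoM RPL6 was 1592, 1746 and 1686 in shCtrl and 760, 965 and 1160 in shWDR5. RPL11 was second in that pair, with 0.36 (-0.02 to 0.73). For BoM minus LM2 the smallest p belonged to RPL9 (0.38, -0.04 to 0.79) and RPL41 (0.43, -0.13 to 0.99), and for BoM minus BrM3 to RPL13 (-0.40, -0.94 to 0.14) and RPL6 (-0.21, -0.58 to 0.15). The intervals are wide enough to hold differences of over 0.5, so they do not show that the lines respond alike. The range of the 3 estimates was at most 0.46, for RPL41, with a median of 0.21 over the 45 genes. Across the 45 genes the log2 fold changes of LM2 and BrM3 had a Pearson correlation of 0.97, those of LM2 and BoM 0.95 and those of BrM3 and BoM 0.97 (n = 45 genes in each, which are not independent replicates).

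In the shCtrl cells, which show the lines without the knockdown, some RPL genes differed between lines. Against LM2, BrM3 had 5 of the 45 genes higher and 6 lower (47.6% of all tested genes called, 24.2% and 23.4%), and BoM had 11 higher and 3 lower (51.8% called, 26% and 25.8%). Against BrM3, BoM had 9 higher and 3 lower (37.6% called, 17.8% and 19.8%). The medians of the 45 were 0.03, 0.12 and 0.18, against 0.008, -0.012 and -0.002 over all genes. These comparisons share their control libraries with one another. For BrM3 against LM2 the 5 became 3 without BrM3 shCtrl replicate 2, and the 6 became 3 without LM2 shCtrl replicate 2, 1 without LM2 shCtrl replicate 3 or BrM3 shCtrl replicate 3 and 2 without BrM3 shCtrl replicate 1. For BoM against LM2 the 11 became 6 without LM2 shCtrl replicate 2 or BoM shCtrl replicate 3 and 7 without BoM shCtrl replicate 2, and the 3 became 1 without BoM shCtrl replicate 1 or 3. For BoM against BrM3 the 9 became 5 without BrM3 shCtrl replicate 1 and 4 without BrM3 shCtrl replicate 3 or BoM shCtrl replicate 2 or 3, and the 3 became 1 without BrM3 shCtrl replicate 2 or BoM shCtrl replicate 1 or 3 and 5 without BoM shCtrl replicate 2.

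RPL7A, whose introns hold 4 snoRNAs that guide the methylation of ribosomal RNA, had the smallest adjusted p of the 45 genes for BrM3 against LM2. Its shCtrl CPM was 2158, 2136 and 2275 for LM2, 1153, 1198 and 1121 for BrM3 and 1301, 1555 and 1498 for BoM, so LM2 lay above both other lines in every library. The log2 difference was -0.92 (standard error 0.11, adjusted p = 2.3e-06) for BrM3 against LM2 and -0.59 (standard error 0.11, adjusted p = 0.00021) for BoM against LM2. RPL10A was 639, 645 and 697 for LM2, 1019, 1092 and 1022 for BrM3 and 708, 842 and 769 for BoM, highest in BrM3 in every library, with 0.66 (standard error 0.14, adjusted p = 0.00071) against LM2. RPL31, with 470, 437 and 464 in LM2 shCtrl, was higher in BrM3 by 0.55 (standard error 0.14, adjusted p = 0.0042) and in BoM by 0.78 (standard error 0.14, adjusted p = 0.00019). For RPL36A, BoM exceeded LM2 by 0.93 (standard error 0.16, adjusted p = 0.00012). RPL11 was lowest in BrM3, and BoM exceeded it by 0.63 (standard error 0.12, adjusted p = 0.00074). RPL22, which binds viral and cellular RNAs besides its place in the ribosome, was 101, 82.6 and 84.2 for LM2, 85.6, 80.6 and 84.2 for BrM3 and 104, 117 and 125 for BoM, with 0.46 (standard error 0.11, adjusted p = 0.0036) for BoM against BrM3 and every BoM library above every library of the other lines. RPL17 was lower in BoM than in BrM3 by 1.19 on the log2 scale (standard error 0.30, adjusted p = 0.0053). In the shWDR5 libraries RPL7A was 1426, 1311 and 1336 for LM2, 743, 904 and 938 for BrM3, 893, 1103 and 1200 for BoM CPM. RPL10A was there 519.8, 489.9 and 557 for LM2, 778, 979 and 985 for BrM3, 530.3, 711 and 863 for BoM. RPL22 was 95.4, 92.9 and 85.5 for LM2, 92.8, 89.3 and 85.9 for BrM3, 114, 143 and 158 for BoM. Each of these calls between shCtrl lines also passed in all 18 fits that left out a library.

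**Figure D4:**
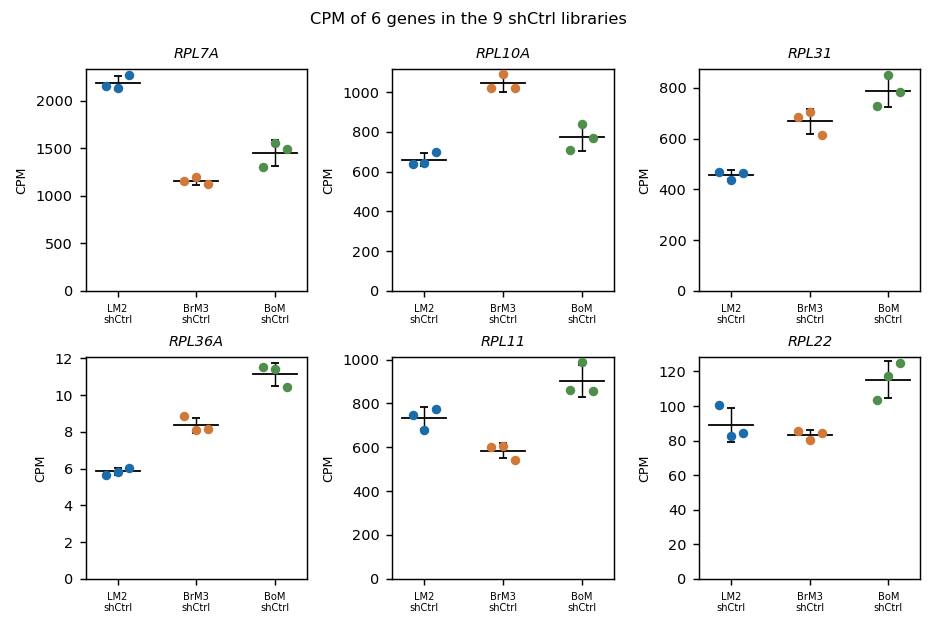
CPM of RPL7A, RPL10A, RPL31, RPL36A, RPL11 and RPL22 in the 9 shCtrl libraries by line, with means and SD of 3 libraries. RPL7A is highest in LM2 (2136 to 2275), RPL10A in BrM3 (1019 to 1092), and RPL31, RPL36A, RPL11 and RPL22 are highest in BoM.

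Levels were compared between genes per kilobase of merged exon, as the mean over the shCtrl groups. RPL7A (715 CPM per kilobase), RPLP0 (694) and RPL8 (578) were highest, and RPL36A (2.13), RPL17 (2.28) and RPL26 (18.1) lowest. By line, RPL7A led in LM2 (979 against 577 for RPLP0), RPL10A in BrM3 (690 against 672 for RPLP0, 639 for RPL8 and 518 for RPL7A) and RPLP0 in BoM (832 against 648 for RPL7A). Merged exons include rare long isoforms, and with the coding length in their place the highest were RPL41 (6060 CPM per coding kilobase), RPLP0 (2910) and RPL37A (2490), with RPL17 (10.1), RPL36A (26.5) and RPL26 (103) again lowest. Across the 45 genes the log2 of the shCtrl CPM and the mean log2 fold change had a Pearson correlation of 0.35 and a Spearman correlation of 0.31. This is a description over genes that share their libraries, and RPL17, RPL36A and RPL26 lie far below the others on that scale.

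The 18 genes lower in all 3 lines and the 14 with values above 0 were compared for features that did not enter their choice. GC content was taken over the pooled sequences of all annotated transcripts of a gene. Its median was 45.2% in the 18, 55.4% in the 13 others with values below 0 and 49.8% in the 14. Median coding lengths were 427.5, 495 and 474 bases. Intronic snoRNAs lie in 6 of the 18, 4 of the 13 and 8 of the 14. With the mean log2 fold change over the 45 genes, GC content had a Pearson correlation of 0.19 and a Spearman correlation of 0.30. The log2 of the coding length had 0.23 and 0.27. With the GC dependence of every library removed, 17 genes were lower and 5 higher in all 3 lines.

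Copies elsewhere in the genome were measured for each gene as the share of its 50-base coding stretches that occur again, letter for letter, in GRCh38. The share ran from 0% in RPL38 to 100% in RPL21, RPL36A, RPL39 and RPL41, and how reads with several matches were counted is not stated beyond the use of STAR's default parameters. Genes with many such stretches were found on both sides of 0, and 13 of the 22 genes over 50% had a mean below 0. The 11 genes under 10%, whose reads have few such matches, gave 8 below 0 (RPL37A, RPL36, RPL38, RPL27, RPL8, RPL11, RPL18 and RPL35A) and 3 above (RPL30, RPL28 and RPLP2), and RPL37A, RPL38 and RPL27 among them fell in all 3 lines. The correlation of the share with the mean log2 fold change was 0.05 (Pearson) and 0.04 (Spearman) over the 45 genes. For RPL21, RPL36A, RPL39, RPL41 and RPL7 (99.7%) nearly all coding stretches of this length have such a copy, and how far this enters their values was not tested. RPL23A and RPL30 overlap genes on the opposite strand over 33.12% and 51.59% of their coding bases, and the strand setting of the counts is not stated.

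**Figure D5:**
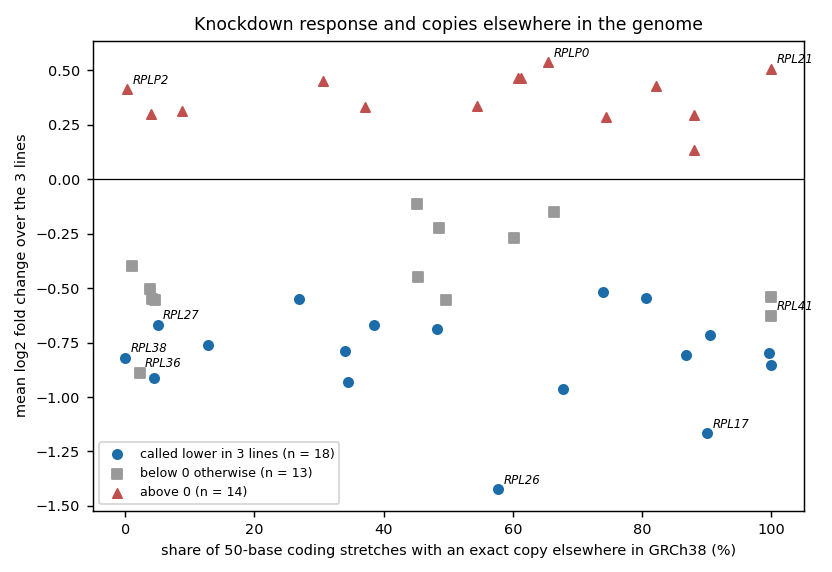
Mean log2 fold change over the 3 lines against the share of 50-base coding stretches with an exact copy elsewhere in GRCh38, in percent, for the 45 genes. Genes lower in all 3 lines (circles, n = 18) and genes above 0 (triangles, n = 14) are both spread from near 0% to 100%.

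In the start windows, 250 bases upstream and 50 downstream, some letter patterns were commoner among the 38 matched members than among all 35116 windows. A C at the start followed by at least 4 pyrimidines was found in 28 (73.7% against 4.07%), in 8 of 14 windows of the genes lower in all 3 lines, 10 of 12 of the others below 0 and 10 of 12 of those above 0. TCTCGCGA on either strand was found in 8 (21.1% against 1.15%), in RPL4, RPL7A, RPL10, RPL10A, RPL12, RPL17, RPL26 and RPL27A, and CCGGAAG, the core letters of an ETS site, in 13 (34.2% against 10.3%). AAGATGGC was found in 4 (10.5% against 2.89%), GGGCGG in 21 (55.3% against 45%), TATAAA in 3 (7.89% against 11.5%) and CACGTG, the E-box that MYC binds, in 2 (5.26% against 7.26%). TCTCGCGA lay in 3 of 14 windows of the genes lower in all 3 lines and 3 of 12 of those above 0, and CCGGAAG in 5 of 14 and 5 of 12. The searches covered both strands, TCTCGCGA overlaps itself in its palindromic form, and a match is a run of letters and not a bound site. The 250 bases upstream of the starts of the genes at either end of the response, RPL26 at chr17:8383194-8383443 (minus strand) and RPLP0 at chr12:120201112-120201361 (minus strand), are printed with the matches in capitals.
RPL26: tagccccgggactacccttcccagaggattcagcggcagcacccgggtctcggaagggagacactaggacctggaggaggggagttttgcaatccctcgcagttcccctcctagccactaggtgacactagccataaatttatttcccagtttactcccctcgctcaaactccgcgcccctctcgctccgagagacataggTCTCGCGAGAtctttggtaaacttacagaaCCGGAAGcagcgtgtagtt
RPLP0: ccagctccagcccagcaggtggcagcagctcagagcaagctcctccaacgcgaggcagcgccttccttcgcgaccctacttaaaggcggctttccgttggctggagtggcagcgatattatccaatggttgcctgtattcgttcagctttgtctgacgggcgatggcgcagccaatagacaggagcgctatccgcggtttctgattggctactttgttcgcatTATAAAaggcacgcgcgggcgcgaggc
The capitals in RPL26 are 2 overlapping TCTCGCGA matches 49 and 47 bases before the start and a CCGGAAG match 19 bases before it, and the capitals in RPLP0 are a TATAAA match 27 bases before the start.

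Other genes of the same pathway were read beside the members. Of 7 paralogs 5 were tested, and RPL7L1 fell in LM2 (-0.68, adjusted p = 0.0015) and BoM (-0.53, 0.0042), while RPL22L1, RPL26L1, RPL36AL and RPL39L passed in no line. Among 60S assembly factors, which build the subunit and leave it again, 47 of 48 were tested. With edgeR 0 of them were lower in any line, also at an unadjusted p under 0.05 and with DESeq2, and 0, 9 and 8 were higher in LM2, BrM3 and BoM, where 1.49%, 2.92% and 5.41% of all tested genes were higher and 4.8%, 7.96% and 10.8% lower (at an unadjusted p under 0.05, 8, 17 and 21, and with DESeq2 4, 13 and 14). Their median log2 fold changes were 0.11, 0.23 and 0.21, against -0.001, -0.005 and 0.016 over all genes. NIP7 (0.49 in BrM3 and 0.43 in BoM), GNL3 (0.38 and 0.56), RPF2 (0.41 and 0.53), RSL1D1 (0.38 and 0.40) and NOC3L (0.53 and 0.66) passed in both of these lines.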

How the data were processed

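RNA from 18 cultures was made into stranded mRNA libraries and sequenced in pairs. Per the methods, the authors aligned reads to hg38 with STAR v2.7.0 at default parameters and deposited raw read counts per gene, without normalization; no strand setting or rule for reads with several matches is named beyond that. The deposited table of the authors' own comparisons (log2 fold changes and adjusted p-values from DESeq2) was not used. Groups and replicate numbers come from the sample titles. The source label names the line of the title for 6 of 18 libraries and was not used, and each of the 18 libraries was most similar to another library of its titled line. The labels write BrM2 where BrM3 is used here, as in the methods. The shCtrl columns carry a code that the labels do not explain and that was assigned by elimination. Spike-in RNA was added, but the table holds 0 spike-in rows.

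Counts were fitted with edgeR 4.0.16 (R 4.3.3), quasi-likelihood, TMM scaling, 6 groups and 12 residual degrees of freedom. HTSFilter's criterion was recomputed and kept genes whose highest normalized count was above 139.7 (Jaccard index 0.97), 12160 genes. P-values were adjusted by Benjamini-Hochberg over these and called under 0.05. Same-numbered shCtrl and shWDR5 libraries deviated together from their group means in all 3 BoM pairs (correlations 0.559, 0.321 and 0.145). The correlations were 0.574, 0.031 and 0.728 in LM2 and 0.543, 0.51 and -0.17 in BrM3. Such a pairing is taken from the data and not from the labels. Values with a replicate block are given beside BoM results whose call they change, and the counts with the block are given for each line. Standard errors were derived from the F statistic. Replicate pairs differed by more than sampling noise (chi-square per gene 5.12 to 90.1), so each library counts as 1 replicate. Depth was 17485841 to 119667013 counts per library, and the number of libraries, 3 per group, also limits the precision. The fit was tested on simulated data with 200 of 12160 genes changed, where it recovered 88.2%, 88.2% and 91.4% of log2 changes of 1 in LM2, BrM3 and BoM, with 6, 4 and 9 false calls.

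The 45 genes, the lists and the groups by position in the ribosome were chosen with earlier results of these data known. Values in every library are given for WDR5, the 6 lowest and 4 highest genes by mean log2 fold change, 7 genes the study names, and the 2 or 3 genes with the smallest p in each comparison between lines; RPL5, RPLP1 and others given by role were chosen after their values were seen. Gene models are GENCODE release 44 on GRCh38 and start windows are RefSeq's on GRCh38.p14. Alternatives were DESeq2 1.42.0, edgeR's filterByExpr (18428 genes), no filter (41236 genes), total count scaling, TMM factors computed without ribosomal protein genes, removal of each library's dependence on GC content (loess, span 0.5), each line fitted alone, a replicate block, and leaving out each library.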

Additional observations from a re-analysis of the deposited data

How the results depend on the processing

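No log2 fold change of a named gene that passed the test changed sign under any of the alternatives run. Without a library, the numbers of lower genes ranged from 17 to 26 in LM2, 14 to 20 in BrM3 and 13 to 26 in BoM, and those of higher genes from 0 to 3, 2 to 8 and 3 to 8. For the shCtrl lines they ranged from 1 to 8 lower and 3 to 7 higher for BrM3 against LM2, 1 to 4 and 6 to 12 for BoM against LM2, and 1 to 5 and 4 to 12 for BoM against BrM3. The 2 higher genes of LM2 became 0 without LM2 shCtrl replicate 2 or LM2 shWDR5 replicate 1, 1 without LM2 shCtrl replicate 3 or LM2 shWDR5 replicate 2 or 3, and the 5 of BrM3 became 3 without any one of the BrM3 shCtrl libraries, 8 without BrM3 shWDR5 replicate 1 and 2 without BrM3 shWDR5 replicate 3. The 5 higher genes of BoM became 3 without BoM shCtrl replicate 1 or 3 or BoM shWDR5 replicate 2 or 3, and 8 without BoM shWDR5 replicate 1. The genes lower in all 3 lines numbered 12 to 20 and those higher in all 3 lines 0 to 3.

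The 2 higher genes in LM2 became 4 with DESeq2, 9 without a filter, 6 with GC content removed and 1 with total count scaling. The 5 in BrM3 became 10 without a filter and 9 with GC content removed. The 5 in BoM became 9 with GC content removed, 3 with total count scaling and 2 with the line fitted alone, which also gave 13 lower genes in place of 21, while LM2 alone gave 17 lower and 3 higher and BrM3 alone 22 and 6. For BoM against LM2 in shCtrl the 3 lower genes became 5 without a filter and 5 with GC content removed, and for BoM against BrM3 the 3 lower became 7 without a filter and the 9 higher became 14 with GC content removed. The cause of these changes was not tested. TMM factors computed without ribosomal protein genes and filterByExpr moved none of these counts of the 45 genes by over 1.5 times. For the 60 values of named genes, 440 of 465 alternative values kept their side of the threshold, 20 newly passed it and 5 no longer did. Those 5 were RPL17 in LM2 and BrM3 and RPL9 and RPL21 in BoM with each line alone (adjusted p 0.11, 0.062, 0.063 and 0.058) and RPL14 in LM2 with total count scaling (0.051). The 18 lower and 2 higher in all 3 lines became 17 and 5 with GC content removed and 9 and 2 with each line alone.

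The labels tie libraries with the same replicate number by no more than the number. Within a line their deviations from the group means had a mean correlation of 0.36 (range -0.17 to 0.728, over 0.1 in 7 of 9 pairs). The correlations were over 0.1 in every pair of BoM but not of LM2 (lowest 0.031) or BrM3 (lowest -0.17). For different numbers the mean was -0.194. The deviations within a group cancel out, so a positive mean for same numbers brings a negative one for different numbers. The -0.194 is therefore no separate evidence of a pairing. With a replicate block the higher genes numbered 5 in LM2 and 8 in BoM, the shCtrl comparisons had 10 lower and 8 higher genes for BrM3 against LM2, 5 lower for BoM against LM2, and 6 lower and 17 higher for BoM against BrM3, and 24 genes were lower and 5 higher in all 3 lines. Of the named genes, RPL36 passed in each line with the block (adjusted p 0.012, 0.048 and 0.0042), RPL21 in LM2 (0.022) and RPL27A in LM2 (0.043) and BoM (0.042), and the block ended no named call.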
